A study of Mus musculus with 8 samples.

Results

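The 10 genes described here are grouped as feedback regulators of the RAS–ERK pathway. They are Spry1, Spry2 and Spry4 of the Sprouty family, Spred1 and Spred2, and the dual-specificity phosphatase genes Dusp4, Dusp5 and Dusp6. Etv4 and Etv5, transcription factor genes induced with these, are counted in the group. The genes were taken by name, and all 10 were found among the 54532 genes of the count table. Expression was measured by sequencing of mRNA 3′ ends in 8 libraries of mouse intestinal organoids, 4 labelled control and 4 labelled as treated with RANKL, the ligand of the receptor RANK. Organoids are epithelial cultures grown from crypts, and the study describes its mouse organoid cultures in general as kept in Matrigel with EGF, noggin and R-spondin. On that description both groups received EGF, itself a ligand upstream of ERK. The age and genotype of the source mice, the dose and time of RANKL for these libraries, and whether the replicates were separate cultures or animals are not given in the sources used here. The p-values therefore measure only the spread between these libraries, which may be technical.

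Growth factors such as EGF bind receptor tyrosine kinases, which switch on RAS and then the kinases RAF, MEK and ERK. Active ERK induces genes that restrain the pathway, so that their mRNA is widely read as a sign of ERK output. Sprouty and Spred proteins act on RAS and RAF, the Dusp phosphatases remove phosphate from ERK itself, and Etv4 and Etv5 are transcription factors whose genes are induced with them. In the intestinal crypt, EGF signalling through ERK sustains the division of stem and progenitor cells.

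With RANKL, Spry2 and Dusp5 fell, and no tested member was called higher. Of the 10 members, 6 had enough counts for the test across all genes (edgeR, adjusted p under 0.05). Of these 6, 2 were lower with RANKL and 4 did not pass, with a median log2 fold change of -0.07. Of all 9971 genes tested, 25.9% passed in either direction and 12.4% were lower with RANKL, with a median log2 fold change of 0.0002. With so few members tested, nothing particular to the group is read from these shares. Spry1, Spry4, Dusp4 and Etv5 had too few counts for this test and did not pass when fitted without the filter on low counts.

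Neither promoter sequence nor factor binding was measured in these libraries. The DNA before the start of the genes that fell is shown so that the genes can be read beside their values. RefSeq windows of 300 bases, 250 before to 50 after the start, were used for 7 of the 10 members, and none for Spry4, Dusp4 and Etv4. The stretches printed, on GRCm38, end at the first annotated start, and run 5′ to 3′ on the strand of the gene. Dusp5 is at chr19:53528895-53529108 (plus strand, 214 bases), where capitals mark 2 adjoining CArG boxes, and Spry2 at chr14:105896820-105897069 (minus strand, 250 bases), with no capitals because no motif matched.
Dusp5: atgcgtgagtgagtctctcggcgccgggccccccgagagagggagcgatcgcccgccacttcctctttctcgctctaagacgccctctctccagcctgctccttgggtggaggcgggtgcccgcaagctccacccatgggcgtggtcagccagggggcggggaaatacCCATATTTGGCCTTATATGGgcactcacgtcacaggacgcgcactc
Spry2: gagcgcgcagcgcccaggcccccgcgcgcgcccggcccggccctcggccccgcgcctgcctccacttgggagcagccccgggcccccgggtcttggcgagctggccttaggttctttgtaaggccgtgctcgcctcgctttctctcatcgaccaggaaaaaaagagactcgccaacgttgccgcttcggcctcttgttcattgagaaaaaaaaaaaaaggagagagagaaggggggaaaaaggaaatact

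The windows were searched on both strands for the ETS core CCGGAAGT, the AP-1 site TGANTCA, the NF-kB consensus and the CArG box, the last of which serum response factor is known to bind. The matches in Dusp5, starting 82 and 72 bases before the RefSeq start, were the only ones in any member's window. Of all 32851 windows, 3.89% held the ETS core, 7.81% the AP-1 site, 8.46% the NF-kB consensus and 1.63% the CArG box. A match is a description of letters and not a bound site, and no match says only that these letters are not in the window. The Dusp5 window had 66.7% G and C and the Spry2 window 62.7%, against a median of 52.7% over all windows. Windows of the other members were above this median too, from 57% in Spred2 to 72.3% in Spred1 and 74% in an Etv5 window. The content of G and C thus does not mark out the genes that fell.

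Spry2, the Sprouty protein best known for restraining growth factor signals in epithelia, had the smallest adjusted p of the members at full depth. With the library total as a covariate and in the median of 20 thinned draws, both given further on, Dusp5 had the smaller one. Dusp5 also did so narrowly with libraries blocked by replicate number (edgeR adjusted p = 0.00052, against 0.000535 for Spry2). Spry2 lies at chr14:105891947-105896819 on the minus strand. Its level in CPM, its count scaled to a common library size by TMM factors, was 37.8, 41.3, 38.0 and 25.8 CPM in control replicates 1 to 4. In RANKL replicates 1 to 4 it was 24.2, 19.3, 21.9 and 15.9 CPM. Every RANKL library was below every control library, but control replicate 4 and RANKL replicate 1 came close. These are the 2 shallowest libraries, with 15 counts of Spry2 each. The mean was 35.7 ± 6.82 CPM in control and 20.3 ± 3.56 CPM with RANKL (SD, n = 4 each; exact two-sided permutation p = 0.0286, the smallest that 4 against 4 allows). On the log2 scale Spry2 fell by 0.93, to 0.525 of its control level (SE 0.18, 95% interval -1.30 to -0.56, edgeR adjusted p = 0.000198). Groups that did not overlap were seen in 24.6% of all genes tested.

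The library depth moved with the treatment, with total counts of 583663 to 7807298 in the control and 613135 to 1923354 in the RANKL libraries. The Spry2 call was kept with the library total as a covariate (log2 fold change -0.81, edgeR adjusted p = 0.0161). When every library was thinned to the smallest total, the value was -0.92 in a single draw, but over 20 further draws, added after the data were seen, the median was -0.67 with a median adjusted p of 0.083, and Spry2 passed in 8 of the 20.

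The other Sprouty members were barely detected. Spry1 had 26 counts over the 4 control libraries and 10 over the 4 RANKL libraries, at 0.253 to 2.16 CPM in control and 0 to 2.75 CPM with RANKL. Its pooled rate with RANKL was 1.07 times that in control, with an exact 95% interval of 0.459 to 2.29 that covers counting error only. Spry4 had 8 counts in control and 2 with RANKL, a pooled ratio of 0.693 (0.072 to 3.47). At this depth, a fall of the size seen in Spry2 was not detectable in Spry1 or Spry4. Fitted without the filter on low counts, Spry1 had a log2 fold change of 0.09 (edgeR adjusted p = 0.944) and Spry4 one of -0.42 (0.859). In the shallowest library, a count of 0 allows up to 3 counts, or 5.14 CPM.

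**Figure D1:**
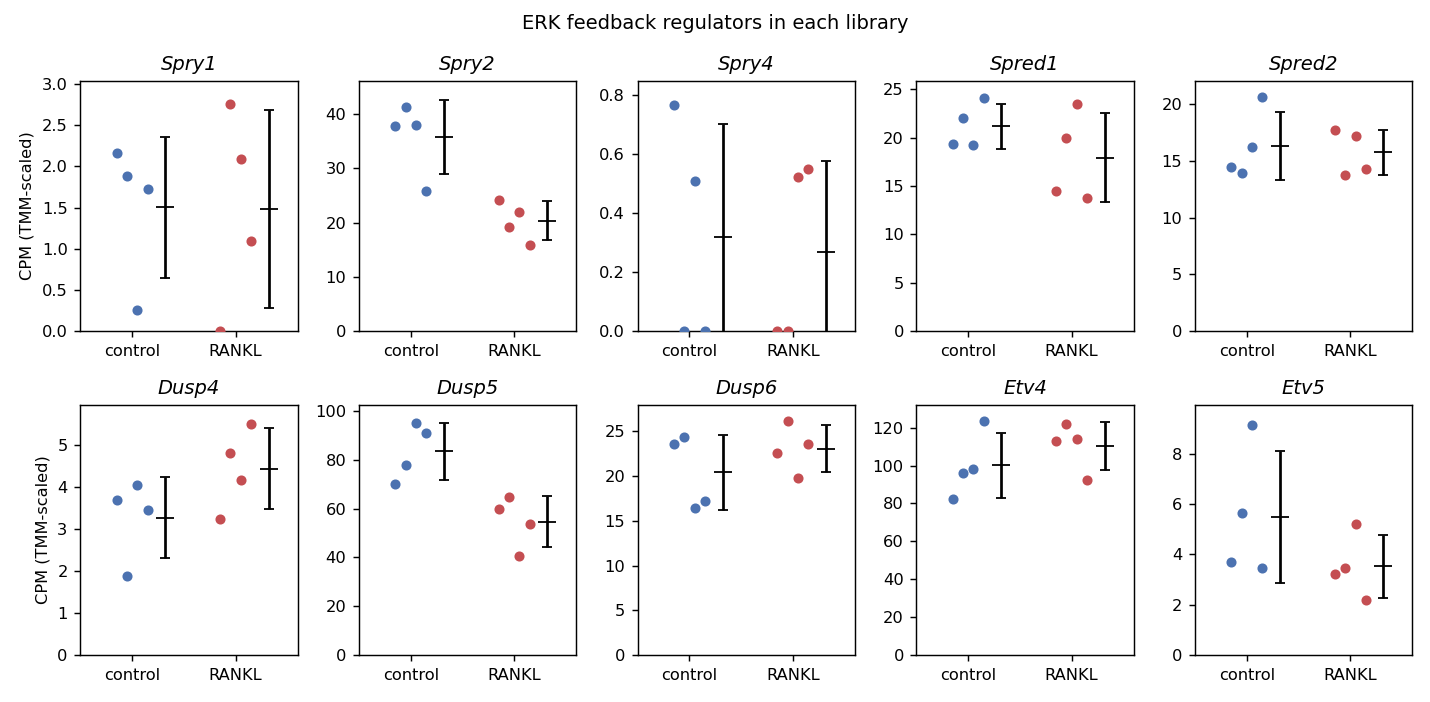
CPM (TMM-scaled, linear axis from 0) of the 10 members in the 4 control (blue) and 4 RANKL (red) libraries, with a bar for mean and SD beside each group and an axis of its own for each gene. The groups separate for Spry2 and Dusp5, and overlap for the other members.

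The Spred genes, whose proteins bring neurofibromin to RAS, did not pass the test. Spred1 was at 19.4, 22.0, 19.3 and 24.1 CPM in the control libraries and at 14.5, 19.96, 23.5 and 13.7 CPM with RANKL. The groups overlapped, with a log2 fold change of -0.15 (95% interval -0.56 to 0.27, edgeR adjusted p = 0.639). Spred2 was at 14.5, 14.0, 16.2 and 20.6 CPM in control and at 17.8, 13.8, 17.2 and 14.3 CPM with RANKL. The log2 fold change of Spred2 was 0.02 (-0.42 to 0.46, edgeR adjusted p = 0.966), and its sign depended on the setting used. In this fit both intervals stop short of the falls fitted for Spry2 and Dusp5, that of Spred1 by a small margin for Dusp5. Both overlap the interval of Dusp5 itself, -0.91 to -0.31. Without RANKL replicate 3, Spred1 had a log2 fold change of -0.34 (SE 0.23). The count ratios of Spred1 or Spred2 to Spry2 or Dusp5 within each library all overlapped between groups. A difference of the Spred genes from the genes that fell is thus not shown.

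Among the phosphatases, Dusp5, the nuclear phosphatase of ERK, fell. The gene lies at chr19:53529109-53542431 on the plus strand and shares exonic positions with AC137853.2 on the opposite strand. The reads were counted by strand. Dusp5 was at 70.2, 77.8, 95.03 and 91.1 CPM in control replicates 1 to 4. With RANKL it was at 59.7, 64.7, 40.7 and 53.8 CPM. Again all 4 RANKL libraries were below all 4 control libraries, with the nearest at 64.7 and 70.2 CPM. Means were 83.5 ± 11.6 CPM in control and 54.7 ± 10.4 CPM with RANKL (SD, n = 4 each, exact two-sided permutation p = 0.0286). Dusp5 fell by 0.61 on the log2 scale, to 0.655 of its control level (SE 0.15, 95% interval -0.91 to -0.31, edgeR adjusted p = 0.0019). In the 2 shallowest libraries the level was 91.1 CPM in control and 59.7 CPM with RANKL. The call was kept with the library total as a covariate (-0.76, edgeR adjusted p = 0.00199). It was lost in the single thinned draw (log2 fold change -0.43, adjusted p = 0.0897), and Dusp5 passed in 15 of the 20 further draws, with a median of -0.65 and a median adjusted p of 0.0104.

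Dusp6, the cytoplasmic phosphatase of ERK, did not pass the test. It was at 23.6, 24.4, 16.5 and 17.2 CPM in control and at 22.6, 26.2, 19.8 and 23.6 CPM with RANKL. All RANKL values but one lay within the range of the control libraries. The log2 fold change was 0.11 (95% interval -0.28 to 0.51, edgeR adjusted p = 0.718). In this fit the Dusp6 interval excludes a fall the size of that fitted for Dusp5, whose own interval reaches -0.31. In the single thinned draw Dusp6 was at -0.08 (SE 0.31), an error too wide to exclude such a fall. Dusp4, a nuclear phosphatase of several MAP kinases, was under the filter, with 54 counts in control and 27 with RANKL. Its pooled rate was 1.39 times that in control (0.840 to 2.24, counting error only), at 1.88 to 4.05 CPM in control and 3.23 to 5.49 CPM with RANKL. Without the filter its log2 fold change was 0.43 (edgeR adjusted p = 0.61).

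Etv4 had the highest level of all members, as 3′ end counts that do not scale with transcript length. It was at 82.6, 96.1, 98.3 and 123.8 CPM in control and at 113.0, 121.8, 114.2 and 92.3 CPM with RANKL. The groups overlapped, with the highest value in a control library. The log2 fold change was 0.19 (95% interval -0.07 to 0.45, edgeR adjusted p = 0.283). Etv5 was under the filter, with 88 counts in control and 21 with RANKL, at 3.44 to 9.12 CPM and 2.20 to 5.22 CPM. Its pooled rate with RANKL was 0.662 of that in control (0.390 to 1.07, counting error only). Without the filter the log2 fold change of Etv5 was -0.70 (edgeR adjusted p = 0.356).

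**Figure D2:**
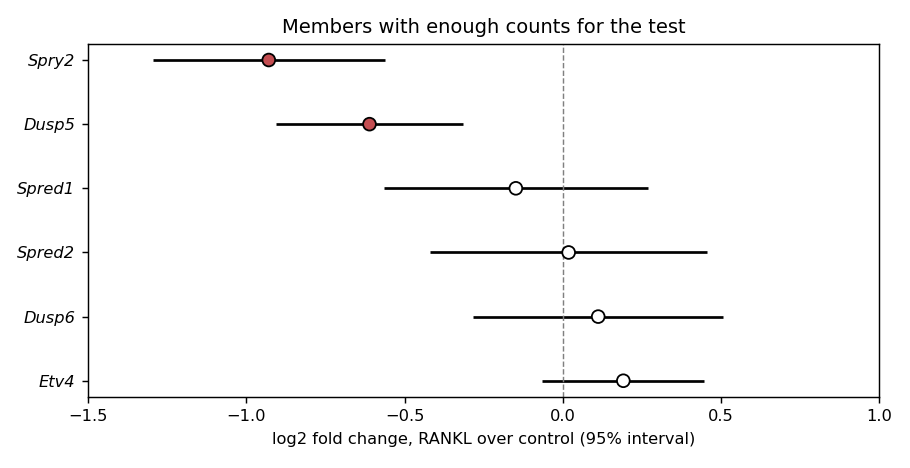
Log2 fold change of RANKL over control with its 95% interval for the 6 members tested, filled where the edgeR adjusted p was under 0.05. The intervals of Spry2 and Dusp5 lie below 0, and those of Spred1, Spred2, Dusp6 and Etv4 include 0.

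Whether members moved apart was measured within each library, as the log2 ratio of 2 members' counts (each plus 0.5), which no scaling between libraries can change. The ratio of Dusp5 to Dusp6 was 1.57, 1.67, 2.52 and 2.35 in control replicates 1 to 4 and 1.37, 1.30, 1.03 and 1.18 with RANKL. It did not overlap between groups and was lower by 0.81 with RANKL (exact two-sided permutation p = 0.0286), a p that any RANKL library left out, in turn, took above 0.05. Of 8 pairs of relatives listed, 2 had both genes tested. Adjusted over these 2 pairs, the p for Dusp5 and Dusp6 was 0.0571. No p below this could be reached with 1 of 2 pairs separated, so this adjusted value says nothing about whether the pair moved apart. The ratio of Spred1 to Spred2 differed by -0.22 (exact permutation p = 0.4).

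All 15 pairs of the 6 tested members were compared after the data were seen. Of these pairs, 3 did not overlap: Spry2 to Dusp6 (difference -0.99), Dusp5 to Dusp6, and Dusp5 to Etv4 (difference -0.76). All 3 set Spry2 or Dusp5 against another tested member, among 8 such pairs, and none of the 6 pairs among Spred1, Spred2, Dusp6 and Etv4 separated. This split of the pairs follows the calls made in these same libraries, so the contrast is no support for the 2 genes moving apart. After adjustment over the 15 pairs each of the 3 had p = 0.143 (exact permutation), and 0 of 15 passed. A separation of Spry2 and Dusp5 from the other members is thus not shown by this test. The smallest exact p that 4 against 4 allows, 0.0286, cannot pass for 3 pairs among 15.

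**Figure D3:**
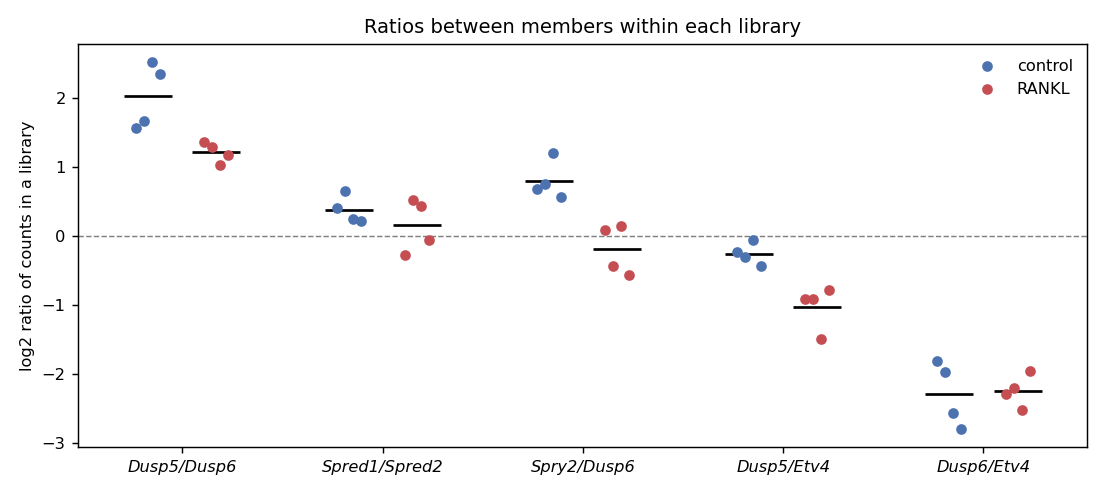
Log2 ratio of the counts of 2 members in each control (blue) and RANKL (red) library, with a line at the group mean, for the 2 pairs of relatives, the non-overlapping pairs among all 15 and Dusp6 to Etv4. Dusp5 to Dusp6 was at 1.57 to 2.52 in control and 1.03 to 1.37 with RANKL, and Dusp6 to Etv4 overlapped.

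The relatives of the members gave few further values. Of 10 listed, Spry3 was not among the genes used here, and 3 passed the filter. Dusp8, a phosphatase chiefly of the kinases JNK and p38, rose from 8.64 ± 3.64 to 17.6 ± 3.18 CPM (SD, n = 4 per group). The log2 fold change of Dusp8 was 0.85 (SE 0.24, edgeR adjusted p = 0.0084). Its call was lost in 1 of 16 alternatives, without RANKL replicate 2 (0.73, adjusted p = 0.0557). Dusp9 (log2 fold change 0.36, edgeR adjusted p = 0.456) and Dusp16 (0.14, adjusted p = 0.54) did not pass.

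Other genes that ERK is known to induce moved in both directions. Of 14 listed, 10 were tested, of which 2 rose, 3 fell and 5 did not pass, with a median log2 fold change of 0.06. Of all genes tested, 13.6% rose and 12.4% fell. Nothing particular to this list or to the pathway lists below is read from such counts. Epha4, an ephrin receptor, rose from 6.73 ± 3.55 to 21.3 ± 4.20 CPM (SD, n = 4 per group; log2 fold change 1.93, SE 0.26, edgeR adjusted p = 1.1e-06), with control replicate 4, at 12.04 CPM, far above the other controls. Ier3, an immediate early gene, rose by 0.75 (adjusted p = 6.05e-05). Hbegf, an EGF receptor ligand, fell by 0.92 on the log2 scale, from 19.1 ± 2.35 to 9.35 ± 3.48 CPM (edgeR adjusted p = 0.00373, or 0.057 with the depth covariate). Phlda1, a regulator of receptor signalling, fell by 0.36 (adjusted p = 0.0115) with groups that overlapped, a call lost without RANKL replicate 2 (adjusted p = 0.0716). Myc, a growth transcription factor, fell by 0.91 (adjusted p = 0.0292), a call lost in 6 of 16 alternatives, among them without control replicate 1 and without RANKL replicate 2, 3 or 4. Ccnd1, cyclin D1, had a log2 fold change of 0.22 (edgeR adjusted p = 0.132, passing at 0.0303 without control replicate 4), and the ephrin receptor gene Epha2 was under the filter.

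Of the feedback regulators tested, 2 fell and 4 did not pass, and their values can be set beside those of the pathway above them. Of 14 ligands and receptors, 9 were tested, of which 1 rose, 3 fell and 5 did not pass, with a median log2 fold change of -0.35. Btc, betacellulin, fell by 0.79 (edgeR adjusted p = 0.00114), and the receptor genes Erbb2 and Erbb3 fell by 0.53 (0.00059) and 0.49 (0.00158). Fgfr4, a receptor of fibroblast growth factors, rose by 1.27 on the log2 scale, from 3.56 to 8.57 CPM (edgeR adjusted p = 0.00311). All 13 inhibitors at the level of receptors and RAS were tested, and 2 rose and 1 fell. These were Il17rd, an inhibitor of growth factor receptor signals (log2 fold change 0.74, edgeR adjusted p = 0.0498), Rasal2, a RAS GTPase activator (0.63, 0.0268), and Socs4, a receptor suppressor (-0.42, 0.0414). Their calls were lost in 11 of 16, 6 of 17 and 11 of 18 alternatives, with adjusted p-values of up to 0.395, 0.112 and 0.239.

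All 23 genes of the cascade from RAS to ERK were tested, of which 4 rose, 3 fell and 16 did not pass, with a median log2 fold change of -0.01. The genes for the GTPases Rras2 (0.94, edgeR adjusted p = 2.4e-06) and Nras (0.53, 0.00274) rose. The call of Nras was lost when thinned (adjusted p = 0.103). Shoc2, a scaffold that promotes RAF activity, fell by 0.43 (0.00798). These are mRNA levels, and neither phosphorylation nor protein was measured here.

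**Figure D4:**
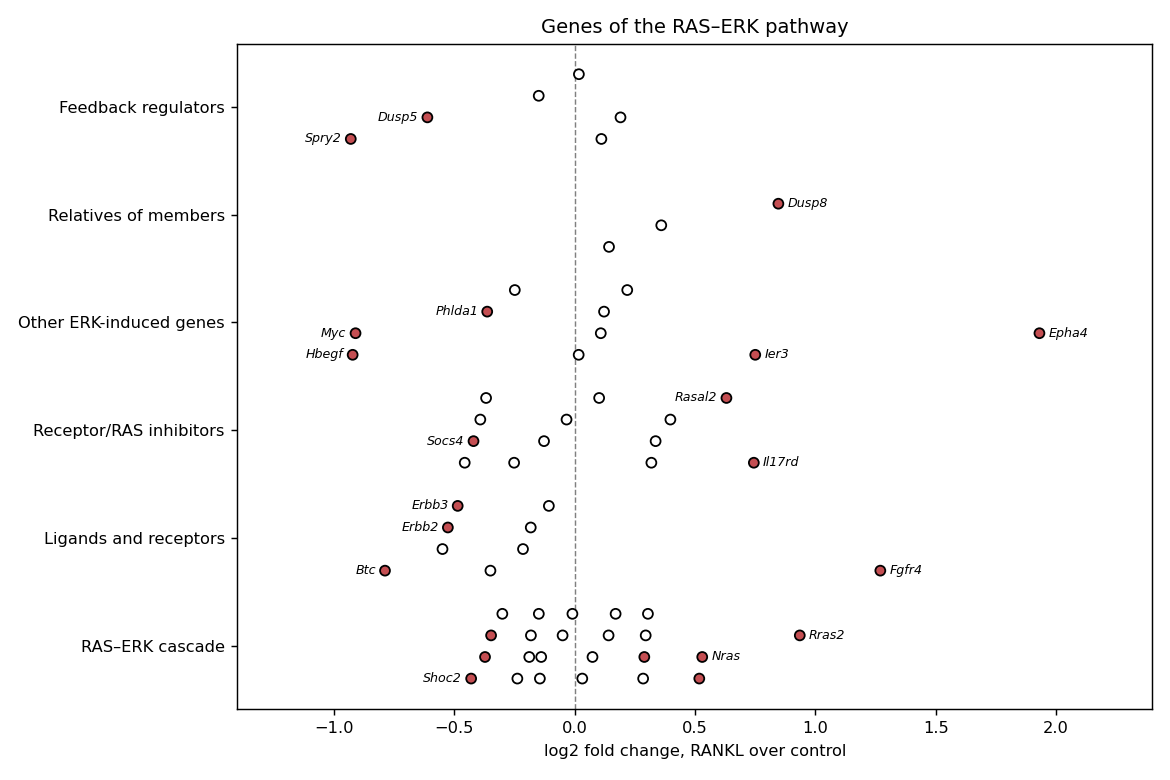
Log2 fold change of RANKL over control for each tested gene of the 6 groups, filled where the edgeR adjusted p was under 0.05 (vertical offsets only separate points; not every filled point is named). Filled points lie on both sides of 0 in each group except the feedback regulators, with Spry2 and Dusp5, and the relatives, with Dusp8.

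Cell type markers moved with the treatment beside Spry2 and Dusp5. The summed level of 6 stem cell markers was 1878 to 2305 CPM in control and 1638 to 1816 CPM with RANKL, with 3 lower and 1 higher. Lgr5, a stem cell receptor, fell by 2.22 on the log2 scale (edgeR adjusted p = 3e-10), while Ascl2, a stem cell transcription factor named after its value was seen, rose by 1.10 (adjusted p = 1.7e-05). Olfm4, which held up to 1364 CPM of the sum, did not pass (-0.18, edgeR adjusted p = 0.216). The sum of 7 proliferation markers was 1123 to 1434 CPM in control and 1000 to 1090 CPM with RANKL, with 2 lower, among them Mki67, which fell by 0.37 (edgeR adjusted p = 0.0229, lost in 4 of 18 alternatives, with RANKL replicate 1 or 2, control replicate 4 or both shallowest libraries left out). The sum of 6 markers of M cells, the antigen-sampling cells of the epithelium, was 50.0 to 59.1 CPM in control and 1828 to 2066 CPM with RANKL, up to 1760 CPM of it Spib, with 5 higher of 5 tested and Gp2 at 0 in every library. In bulk RNA, fewer cells of a type and less RNA per cell cannot be told apart, and the part of these markers in the fall of Spry2 and Dusp5 was not tested. Summed markers of epithelium, at 5247 to 6172 CPM in control and 5507 to 5878 CPM with RANKL, overlapped, as did those of enterocytes, Paneth, goblet, enteroendocrine and tuft cells. Single markers passed in some of these lists: 1 of 6 lower for epithelium, 1 of 6 higher for enterocytes, 1 of 5 lower for Paneth cells and 2 of 6 higher for enteroendocrine cells. Stromal markers summed to at most 32.7 CPM with Dcn at 0, endothelial markers to at most 3.44 CPM with Cdh5 and Kdr at 0, and immune markers to at most 14.5 CPM with Cd3e at 0.

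The genes most like Spry2 across the 8 libraries, by Pearson correlation of log2 CPM among 6646 tested genes of at least 20 CPM, were Ybx3 (0.982), Ppa1 (0.981) and Palld (0.977). The 8 points share the treatment and the depth of their libraries, so the correlations are a description only. These 3 genes had log2 fold changes of -0.57, -0.42 and -0.67.

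**Figure D5:**
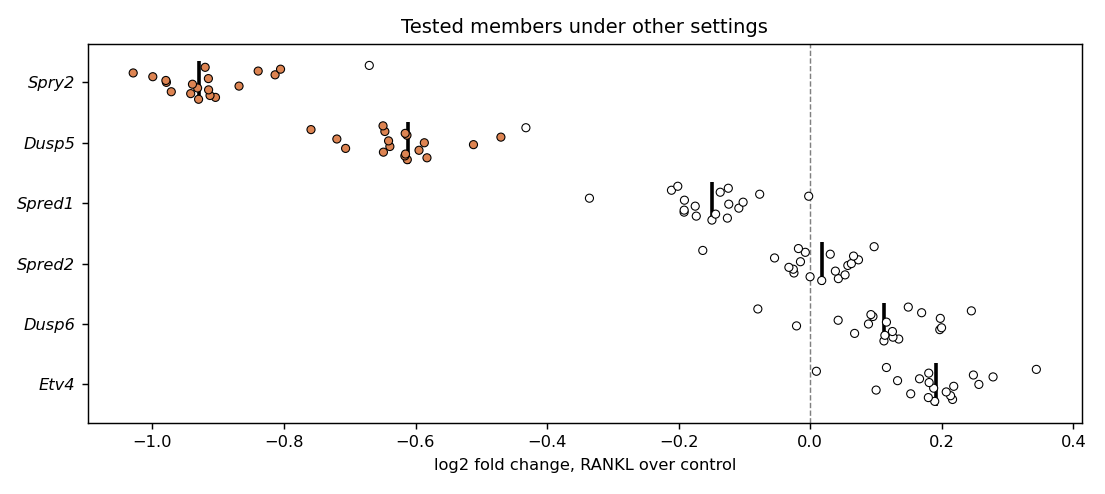
Log2 fold change of RANKL over control for each tested member under every alternative setting (points, filled where the adjusted p was under 0.05) and as reported (vertical line). Spry2 and Dusp5 stay below 0 throughout with 1 open point each, while Spred2 and Dusp6 take both signs and no point of Spred1, Spred2, Dusp6 or Etv4 is filled.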

How the data were processed

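RNA from 8 libraries of mouse intestinal organoids (4 control, 4 RANKL) was sequenced from the 3′ end (QuantSeq forward kit). The deposited values are raw counts per gene, without normalization, which the authors obtained with BBDuk (trimming), bowtie2 (removal of abundant sequences), STAR (alignment, GRCm38) and strand-specific featureCounts. The totals ran from 583663 to 7807298 per library, a ratio of 13.4, with the RANKL libraries at 613135 to 1923354. A count of 0 allows 3 counts, or between 0.384 and 5.14 CPM depending on the library. Without molecular identifiers, intervals and floors cover counting error only.

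Symbols were matched for 54409 of 54532 genes, and coordinates came from a GENCODE annotation of the same build, not the release counted on. edgeR 4.0.16 (quasi-likelihood test, TMM, its low-count filter, Benjamini-Hochberg over 9971 genes, threshold 0.05) was fitted to all 8 libraries in R 4.3.3, in steps tested on simulated data. Exact permutation tests used all 70 assignments. Alternatives were other scalings, DESeq2 1.42.0, limma-voom 3.58.1, other filters and thresholds, each library left out, a replicate block, a depth covariate and thinning. The members and gene lists were chosen with earlier results of these data known. Genes named are all members, their tested relatives, Phlda1, Ccnd1, Epha2 and Epha4, from each pathway list up to 4 genes past the threshold by size of change, Lgr5, Olfm4 and Mki67, and the 3 genes most like Spry2. Some genes that the rule would name are not reported here. Protein sequences were not used here.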

Additional observations from a re-analysis of the deposited data

Results flagged for a closer look

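In 2 groups of 4 libraries, 1 library stood far from the other 3 by Dixon's test. Epha4 in control replicate 4, the shallowest library, was at 12.04 CPM, against 5.37 CPM in the next highest control library. Olfm4, a stem cell marker, in RANKL replicate 4 was at 866 CPM, against 1070 CPM in the next lowest RANKL library. Over the 68 groups examined, chance alone would give about 3.4 such cases. No value of a member stood apart in this way.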

How the results depend on the processing

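The direction of Spry2 and of Dusp5 was kept in all 19 alternatives, of which each lost its call in 1. Spry2 lost it in the median of the 20 thinned draws (-0.67, adjusted p = 0.0829), added after the data were seen, though not in the planned single draw (-0.92). Dusp5 lost it in that single draw (-0.43) and not in the median of the 20 (-0.65). Over single libraries left out, Spry2 ran from -0.999 to -0.81 and Dusp5 from -0.72 to -0.47. The number of genes called, 2587, became 1429 when thinned and 1636 at an adjusted p of 0.01, and ran from 1853 to 2601 with 1 library left out.

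Spred2 changed sign with DESeq2 (-0.0002), no filter (-0.0247), the replicate block (-0.0074), the depth covariate (-0.163), thinning (-0.0179 in the single draw, against a median of 0.10 over the 20), and leaving out a library (-0.0542 to 0.0734). Dusp6 did so with thinning (-0.0796 in the single draw, against a median of 0.15) and without control replicate 3 (leave-one-out range -0.0208 to 0.20). Neither passed the test in any setting. The sign of Dusp9 turned with the depth covariate (-0.174). The difference in the ratio of Dusp5 to Dusp6 (-0.81) no longer passed, before adjustment, when any RANKL library was left out (range over all libraries left out -0.96 to -0.64), without both shallowest libraries (-0.75, exact permutation p = 0.1, the smallest allowed), when thinned (-0.42, exact permutation p = 0.257), or paired by number (replicate block, -0.81, exact p = 0.125, the smallest allowed). The cause of these changes was not tested.

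No pairing by replicate number was seen: same-numbered deviations correlated at -0.008, -0.034, 0.104 and 0.035. Low correlations at these depths do not show that pairing was absent. With the replicate block 2610 genes were called. For the 23 other named genes, 353 of 398 values kept direction and call, 43 lost the call, 1 gained it and 1 reversed. Requiring 10 counts in every library left Spred1 without a value. The 4 members under the filter did not pass without it, by edgeR or, where DESeq2 gave an adjusted p, by DESeq2.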
